A study of Zea mays with 2 samples.

Results

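The 19 kD alpha zeins are storage proteins of the maize (Zea mays) kernel, and 6 of their genes were followed here out of 33283 genes measured. They are defined by a list of gene IDs that uses no measured value, though it was chosen with earlier results of these data known. They are called by the protein names in their descriptions: D1, 19D1, A20, 19C2, 19A2 and A30. All 6 were present in the data of both genotypes. Endosperm, where the kernel stores starch and protein, was sampled at 15 days after pollination from wild type and from dek33, a defective kernel mutant known to be affected in a reductase of riboflavin synthesis. The labels name neither the mutant allele nor the inbred background, and give no treatment. The design text of the series states a triplicate, but each genotype has a single FPKM value per gene. Whether this value pools the triplicate is not stated, and the values of a genotype are called its library below. With single values, no difference has a replicate check and no test was possible. What is compared is 1 library with another, not the genotypes as such.

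Zeins are alcohol-soluble prolamins, made on the rough endoplasmic reticulum of starchy endosperm cells and packed into protein bodies. Alpha zeins fill the core of the protein body, inside a shell of gamma and beta zeins. They are encoded by tandem families, of which z1A, z1B and z1D give the 19 kD proteins and z1C the 22 kD proteins. Copies within a family are nearly identical, so short reads can match several of them and the value of a single copy is uncertain.

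Expression is given in FPKM (sequenced fragments per unit of transcript length and of library size), as the authors deposited it. All genes together reached 761571 FPKM for dek33 and 672660 for wild type, with an unknown number of reads behind these sums. A value of 1e-05 takes the place of 0 and may mean that the estimate failed. A gene with it is called listed at 0 and gets no fold. The 21688 genes that reached 1 FPKM in either library had a median log2((dek33 + 1)/(wild type + 1)) of 0.44, a factor of 1.36, and centred ratios have this median subtracted. Of the 8 starchy endosperm markers looked for, 7 were matched by name and none was listed at 0. They summed to 11513 FPKM for dek33 and 8793 for wild type. By 2-fold, 1 of the 7 was higher in dek33 and 0 lower as deposited, with a median log2 ratio of 0.93. After centring the median was 0.49 and 0 were past 2-fold in either direction. Granule-bound starch synthase 1 (wx1) alone was lower in dek33 as deposited, with 3036 against 3904 (centred -0.80). The prolamin-box binding factor was also below 0 after centring (-0.18). This factor and Opaque-2, whose log2 ratio of 0.93 is the median, are also in the list of zein regulators below, so the lists are not independent.

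Alpha zein A30 (GRMZM2G353268) lies on chromosome 4 at 5535743 to 5536690 (B73 RefGen_v3) and carries the RefSeq symbol z1A1_7. It headed the wild type library with an FPKM of 27300 and ranked 9 in the dek33 library with 6794. The wild type value was 4.02-fold higher, a log2 ratio of -2.01 and a centred ratio of -2.45. Alpha zein 19A2 (GRMZM2G008341), also on chromosome 4 at 29951761 to 29952727, carries the symbol z1A2_1. It ranked 2 in wild type with 23556 FPKM and 13 in dek33 with 5162, which was 4.56-fold lower (log2 ratio -2.19, centred -2.63). These z1A copies had the lowest dek33 to wild type ratios of the members. In bulk tissue, fewer zein-making cells and less zein RNA per cell cannot be told apart. The part of read assignment among near-identical copies was not tested either.

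Both members of chromosome 1 are described as D1 proteins and lie 215 kb apart. Alpha zein 19D1 (AF546187.1_FG007, 162006911 to 162007636) had 5503 FPKM for dek33 against 15267 for wild type, a 2.77-fold lower value (log2 ratio -1.47, centred -1.91). Alpha zein D1 (AF546187.1_FG001, 161790710 to 161791432) had 5508 in dek33 and 8799 in wild type. This 1.60-fold difference (log2 ratio -0.68) was under 2-fold as deposited, while the centred ratio of -1.12 was past it. The copies were nearly equal in the dek33 library, where 19D1 stood at 0.999 times D1, and unequal in wild type, where it stood at 1.74 times D1. Between the chromosome 4 members the ratio differed less, with A30 at 1.32 times 19A2 in dek33 and 1.16 times in wild type.

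Alpha zeins A20 and 19C2 had the opposite pattern. A20 (AF546188.1_FG005, chromosome 7, 18865424 to 18866146) was the most abundant gene of the dek33 library with 24482 FPKM, and was listed at 0 in wild type. 19C2 (AF546188.1_FG007, chromosome 7, 18877460 to 18878182) ranked 2 in the dek33 library with 22884 and was also listed at 0 in wild type. Their loci are 11.3 kb apart, and A20 stood at 1.07 times 19C2 in the dek33 library. Whether the wild type endosperm lacked these transcripts or their values failed to be estimated was not tested.

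**Figure D1:**
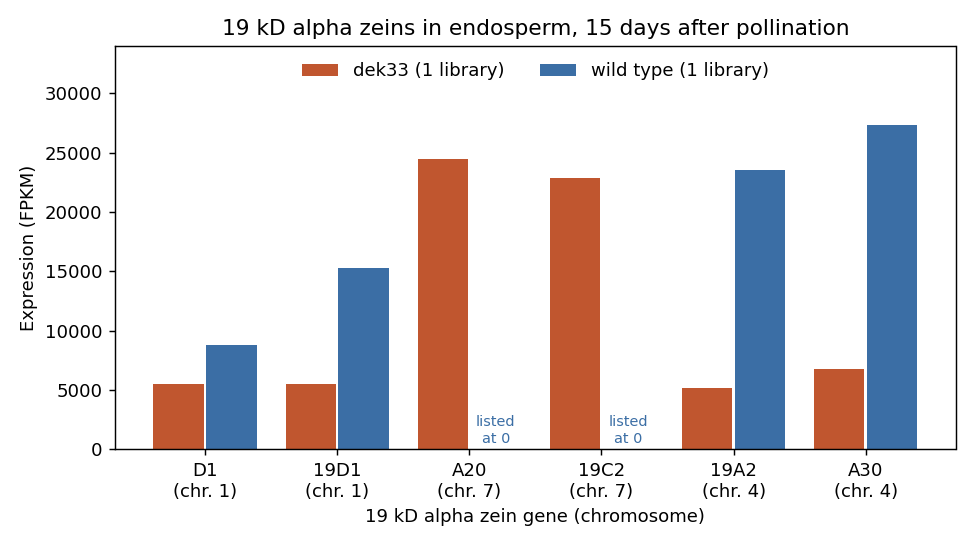
FPKM (vertical axis, from 0) of each of the 6 genes in the dek33 and the wild type library, 1 bar per library and no error bars because each genotype has 1 value per gene. D1, 19D1, 19A2 and A30 were lower in dek33, while A20 and 19C2 had 24482 and 22884 in dek33 and were listed at 0 in wild type.

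By a size rule of 2-fold or more, for genes that reach 5 FPKM in either library, 3 of the 6 members were lower in dek33 (19D1, 19A2 and A30), 1 was neither (D1) and 2 counted as higher (A20 and 19C2). Of all 14348 genes tested, 4.02% were lower and 14.8% were higher by that rule. After centring, 4 members were lower against 6.79% of all genes, and A20 and 19C2 again counted as higher, against 4.4% of all genes. The count of 2 higher members rests on values listed at 0 and is 0 without them. Because the members are among the most abundant genes, the 57 genes not named as zeins that reach 1000 FPKM in either library form a closer comparison. It was chosen after values were seen. Of the 57, 12.3% were lower and 35.1% higher as deposited, 17.5% and 15.8% after centring, and their median log2 ratio was 0.61. Undescribed models of the members' contigs are among the 57. AF546187.1_FG009 counted as lower both ways, and AF546188.1_FG002 after centring only. Whether these models are zeins was not tested.

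The levels of the members were more alike in the dek33 library once A20 and 19C2 are set aside. The other 4 ranged from 5162 to 6794 FPKM in dek33, a span of 1.32-fold, and from 8799 to 27300 in wild type, a span of 3.10-fold. With A20 and 19C2 kept, the dek33 span was 4.74-fold, wider than that of wild type, where neither has a value. In wild type the order was A30, 19A2, 19D1 and D1. In dek33 it was A20, 19C2, A30, D1, 19D1 and 19A2, and the last 3 lay between 5162 and 5508. With 1 library per genotype, no spread is known against which to separate neighbours in either order.

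Summing the copies gave another picture than the single genes. The 6 members together had 70332 FPKM for dek33 against 74921 for wild type, a 1.07-fold lower sum, or a log2 ratio of -0.09 as deposited and -0.53 after centring. They made up 9.24% of summed FPKM in dek33 and 11.1% in wild type. The chromosome 4 pair summed to 11956 against 50855 (4.25-fold lower in dek33), and the chromosome 1 pair to 11010 against 24065 (2.19-fold lower). The chromosome 7 pair summed to 47365 in dek33, or 67.3% of the member sum, and was listed at 0 in wild type. Leaving that pair out gave 22967 against 74921, 3.26-fold lower in dek33, but takes FPKM from the dek33 library alone. The sum of all 6 counts the pair as 0 in wild type. If those values failed to be estimated, the wild type sum is too low and the 1.07-fold figure does not hold. This was not tested.

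**Figure D2:**
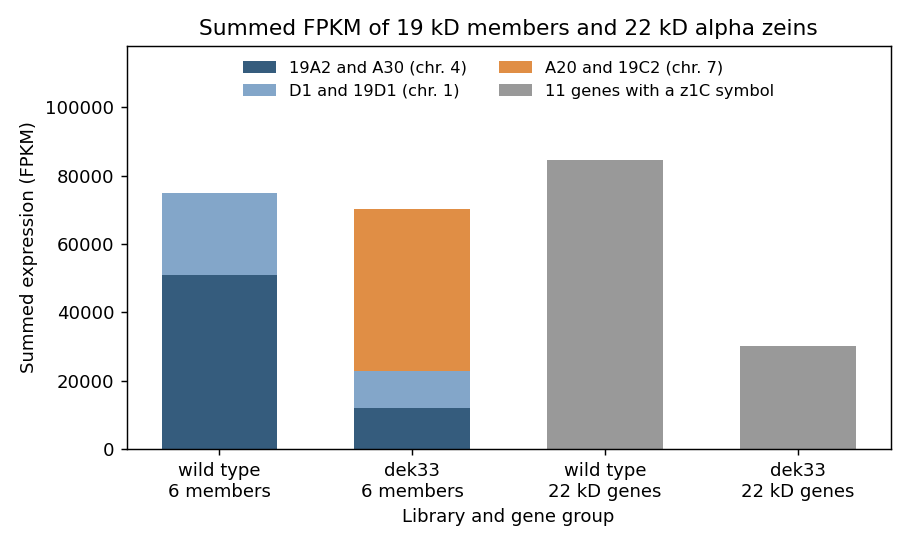
Summed FPKM (vertical axis, from 0) of the 6 members, stacked by chromosome, and of 11 genes with a RefSeq 22 kD symbol, in 1 wild type and 1 dek33 library each. The member sums of 74921 and 70332 are close in height, but 47365 of the dek33 sum comes from A20 and 19C2, which are listed at 0 in wild type. The wild type sum counts this pair as 0 and is too low if their values failed to be estimated.

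The 6 genes are not the whole 19 kD family. RefSeq symbols of the z1A and z1B series mark 8 further genes in these data. Of them 7 had values in both libraries, with a median log2 ratio of -1.71 (range -1.93 to -0.42) beside -1.74 for the 4 members with values in both (range -2.19 to -0.68). Alpha zein 19B1 (GRMZM2G059620) had 4849 FPKM in dek33 against 18488 in wild type, at a locus that 2 RefSeq genes share. The gene described as Z1A alpha zein (GRMZM2G026939) had 4258 against 14200, and Z4 (GRMZM2G404459) had 3965 against 10738. Both genes described as PMS1 were lower as well, with 3150 against 10339 (GRMZM2G053120) and 2643 against 9362 (GRMZM2G353272, also named floury4 in RefSeq). The lowest ones were GRMZM2G025763 (symbol z1B_8), at 58.7 against 116, and GRMZM2G018193 (symbol z1A1_8), at 42.7 against 57.5. The remaining one, PMS2 (GRMZM2G008913, symbol z1A2_2), had 11333 in dek33 and was listed at 0 in wild type, like A20 and 19C2. With these 8 genes and the 6 members summed, 14 in all, dek33 had 100633 and wild type 138221, a 1.37-fold difference, and the members made up 69.9% and 54.2% of these sums. A20, 19C2 and PMS2 enter the wild type sum as 0. This sum does not cover the whole family: RefSeq has 12 z1A, 9 z1B and 5 z1D symbols, and models without a matched symbol are left out of it.

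The 22 kD alpha zeins, marked by 11 genes with z1C symbols, had values in both libraries for every gene. Their median log2 ratio was -1.67 (range -3.40 to 0.03), close to the median of the 4 members with values in both libraries. Of the 11 genes, 9 were at least 2-fold lower in dek33 and 2 were neither. Their sum was 30225 for dek33 and 84619 for wild type, a 2.80-fold lower sum. PZ22.1/22A1 (GRMZM2G397687, named floury2 in RefSeq) had 8396 against 23340, while 22kD alpha zein 4 (GRMZM2G346897) had 3886 against 3799. The summed 19 kD members and the summed 22 kD genes had different ratios, 1.07-fold and 2.80-fold lower in dek33. Without A20 and 19C2, the pair listed at 0 in wild type, the member sum was 3.26-fold lower. No test of the difference was possible.

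**Figure D3:**
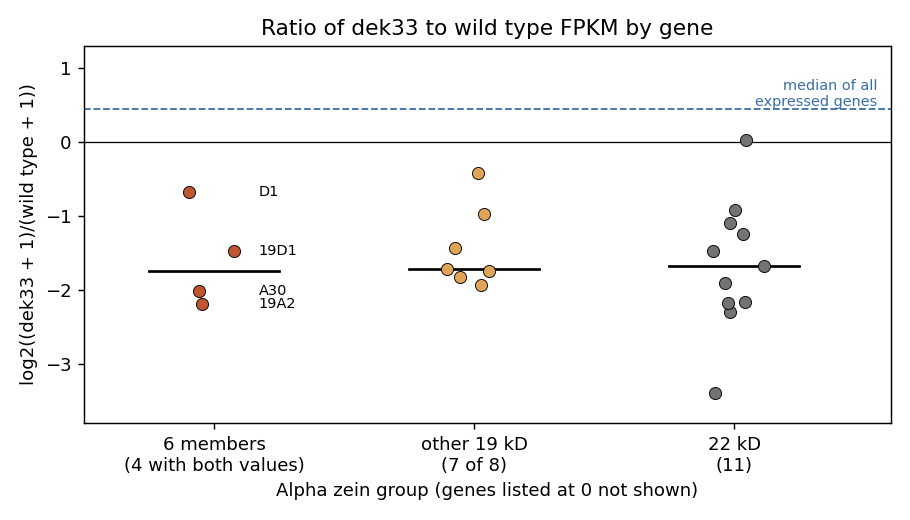
log2((dek33 + 1)/(wild type + 1)) of FPKM (vertical axis) for each alpha zein with a value in both libraries, in 3 groups: the members, the other 19 kD genes and the 22 kD genes. Points are genes, black bars are group medians (-1.74, -1.71 and -1.67) and the dashed line is the median of all expressed genes, 0.44.

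The abundant genes of dek33 that were listed at 0 in wild type were all zeins. The 2022 genes listed at 0 in wild type had a median of 0.0678 FPKM in dek33, and 4 of them had at least 1000. These were A20, 19C2, PMS2 and gz50 (GRMZM2G138689, a gamma zein with 4099 in dek33). They are 4 of the 68 genes that reach 1000 FPKM in the dek33 library. Zeins are common among these 68: A30, 19A2, D1, 19D1 and several other 19 kD and 22 kD genes with values in both libraries also belong to them. In the other direction, 1330 genes were listed at 0 in dek33, and none of the 53 genes that reach 1000 FPKM in wild type was among them. The next highest dek33 value of a gene listed at 0 in wild type was 555, of GRMZM2G498613, whose locus spans 108 bases.

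The other gene models on the contig of the chromosome 7 members had values in both libraries. The contig carries 4 other gene models (FG001, FG002, FG003 and FG006), which the data describe as uncharacterized or not at all. Their loci span 722 to 726 bases, against 723 for A20 and 19C2. Model FG006, 1.58 kb from A20 and between the members, had 116 FPKM in dek33 and 351 in wild type. Model FG002 had 1089 against 1889, FG001 had 293 against 565 and FG003 had 215 against 393. All 4 were lower in dek33, by 1.74-fold to 3.02-fold, and their sum was 1712 against 3197. Outside the contig's models, genes within 100 kb of A20 and 19C2 went both ways. GRMZM2G558353 had 5.61 in dek33 against 0.825 and GRMZM2G704406 had 7.999 against 2.97, while GRMZM2G025763 (symbol z1B_8) was lower, as given above.

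**Figure D4:**
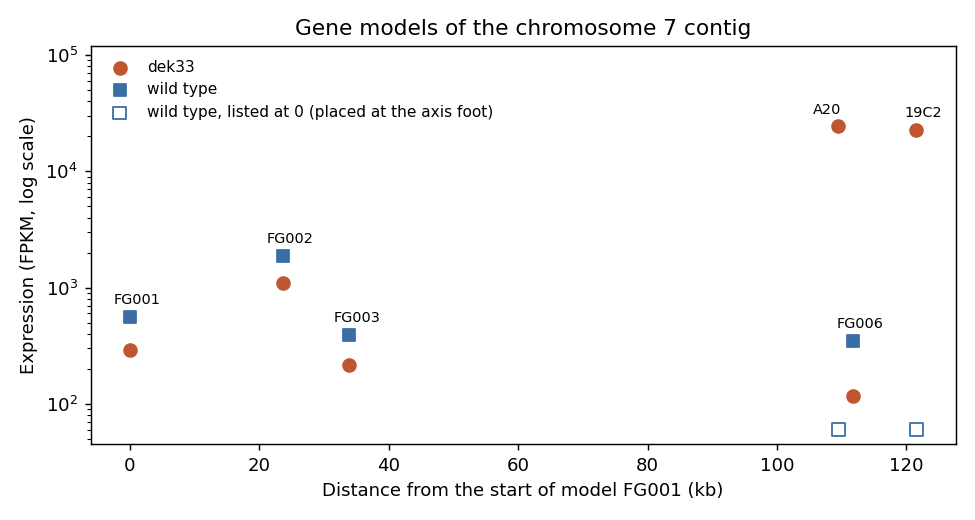
FPKM (vertical axis, log scale) of the 6 gene models of the chromosome 7 contig against distance in kb from the start of model FG001. The 4 other models had higher values in wild type (squares) than in dek33 (circles), while A20 and 19C2 had values in dek33 only and are drawn as open squares at the axis foot for wild type.

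Zein genes also neighbour the other members on chromosome 4. Within 100 kb of A30 lie 12 genes, of which 5 have a z1A symbol: PMS1 (both copies), 19B1, Z4 and GRMZM2G018193. The nearest, GRMZM2G353272, is 3.19 kb away. 19A2 has PMS2 10.6 kb away, so a member lower in dek33 neighbours a zein listed at 0 in wild type. Summed over 19A2 and PMS2, dek33 had 16495 against 23556 in wild type, 1.43-fold lower, compared with 4.56-fold for 19A2 alone. PMS2 enters the wild type sum as 0. On chromosome 1 no other named zein lies within 100 kb of D1 or 19D1. The unnamed model AF546187.1_FG009, 39.8 kb from 19D1 with a locus of 49574 bases, had 600 against 1278. No locus overlaps that of a member.

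The loci of the members differ in what they include. D1, A20 and 19C2 span 723 bases, or 241 codons, and 19D1 spans 726 bases, or 242 codons, the coding length of a 19 kD alpha zein, so these models appear to hold no untranslated parts. The loci of 19A2 and A30 span 967 and 948 bases and are longer. FPKM divides by transcript length, so levels compared between the 2 kinds of model rest on different lengths, while the ratio between genotypes for 1 gene does not.

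None of the matched regulators and protein body genes had a lower FPKM in dek33 as deposited, while after centring some had ratios below 0, among them floury1 (-0.43), Opaque10 (-0.42) and the prolamin-box binding factor (-0.18). Of the 10 symbols in the list of zein regulators, 5 were matched, and 3 of these reached 5 FPKM, with 0 lower and 0 higher by 2-fold and a median log2 ratio of 0.77 (0.33 after centring). Opaque-2 (GRMZM2G015534), a bZIP activator best known for 22 kD alpha zein genes, had 466 FPKM in dek33 against 245 in wild type. The prolamin-box binding factor (GRMZM2G146283), a Dof zinc finger protein that binds a motif shared by zein promoters, had 82.5 against 68.7. The Opaque2 heterodimerizing proteins ohp2 (GRMZM2G007063) and ohp1 (GRMZM2G016150) had 22.02 against 12.5 and 2.38 against 1.26. The gene with the RefSeq synonym MADS47 (GRMZM2G099577) had 2.84 against 2.26.

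Of the 10 symbols of zein body and endoplasmic reticulum genes, 6 were matched, with 2 higher by 2-fold, 0 lower and 4 neither, a median log2 ratio of 0.37 (-0.068 after centring), and 0 past 2-fold in either direction after centring. Floury1 (GRMZM2G094532), a protein-body membrane protein that places 22 kD alpha zeins, had 89.2 in dek33 against 88.7 in wild type. Opaque10 (GRMZM2G346263), another protein that arranges zeins within the body, had 62.8 against 61.7. The chaperones bip1 (GRMZM2G114793) and bip2 (GRMZM2G415007) had 97.1 against 70.1 and 19.5 against 15.9. Calreticulin crt2 (GRMZM2G358059), a calcium-binding chaperone, had 71.4 against 35.0, and floury3 (GRMZM2G006585), a PLATZ factor, had 447 against 213. These are the 2 genes counted as higher. Floury3 is described as a transcription factor, so the counts and median of this list are not of protein body and endoplasmic reticulum proteins alone.

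Embryo and basal transfer layer markers had lower sums in dek33, and aleurone markers differed little. Embryo markers with at least 5 FPKM were lower in 3 of 3 genes (glb1, glb2 and ole1), and the 4 matched of 7 summed to 316 in dek33 against 3426 in wild type, with lec1 at 2.12 against 0.295. Basal transfer layer markers were lower in 1 of 5 as deposited and in 4 of 5 after centring (median -1.39), and summed to 199 against 385. The 4 matched of 6 aleurone markers summed to 153 against 129, with none of 3 past 2-fold as deposited or after centring. No matched marker was listed at 0. All genes not named as zeins summed to 625990 FPKM in dek33 and 448658 in wild type, 1.40-fold higher in dek33. The part of tissue makeup and of this shift in the member values was not tested.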

How the data were processed

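Maize endosperm RNA was sequenced from dek33 and wild type, with a single value per gene in each genotype, and samples were grouped by their genotype label. The FPKM values are those the authors deposited. Bowtie 0.12.2 and the assembly B73 RefGen_v3 are named in the submitters' processing notes. Not given in the sources used here are the FPKM program, the annotation release, filters and any pooling of the triplicate. FPKM carries no read counts, so depth is unknown and no interval is given. The members and gene lists were chosen with earlier results of these data known.

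Ratios were log2((dek33 + 1)/(wild type + 1)). Called genes passed 2-fold with at least 5 FPKM in 1 or both libraries. Alternatives were pseudocounts of 0.1 and 5, centring, scaling by a trimmed mean of M values (cutting 30% at each end of M, 5% at each end of A), equal totals without zeins, a 4-fold limit, other filters and other gene groups. Starts were raised by 1, because 77.9% of 610 predicted models under 1000 bases then span a multiple of 3, against 10.7% otherwise. Subfamily names come from RefSeq symbols (assembly NAM-5.0), which matched 18189 gene IDs (54.6%) and 2 of the 6 members. Named genes were all members, other zeins, matched regulator and protein body genes, neighbours, and genes with at least 1000 FPKM listed at 0 in the other library. Genes counted as zeins were the members and those named so by description or RefSeq symbol, so unnamed models count as other genes. Wrong synonym matches were removed by hand. The calling step was tested on simulated data. Python 3.11.15, numpy 2.4.6, pandas 2.3.3 and matplotlib 3.10.9 were used.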

Additional observations from a re-analysis of the deposited data

How the results depend on the processing

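The log2 ratio of the member sum, -0.09, stayed so with either pseudocount. It was -0.53 when centred, -0.57 by trimmed mean and -0.57 with equal totals without zeins. It was -1.71 without members listed at 0 (mean of their single ratios -1.59), -1.13 for the chromosome 1 pair, -2.09 for the chromosome 4 pair and -0.77 over all alpha zeins. Added after seeing the data, it was -0.46 over the 14 genes that are members or have a RefSeq 19 kD symbol. Without 1 member at a time it was 0.42 without A30, 0.34 without 19A2, 0.12 without 19D1, -0.029 without D1, -0.66 without 19C2 and -0.71 without A20. The sign as deposited thus changes without any of 3 members. After centring, these 6 values lay between -1.15 and -0.025. The 4 single ratios were lower in dek33 at each of the 5 settings tried. Members lower by 2-fold numbered 3, or 4 with centring and both rescalings, and 2 at 4-fold. Members higher numbered 2, and 0 without genes listed at 0.

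Over all genes, 2118 were higher and 577 lower. A pseudocount of 5 gave 1038 and 347, centring 632 and 974, trimmed mean 555 and 936, equal totals without zeins 546 and 941, a 4-fold limit 219 and 196, a minimum of 20 FPKM 1203 and 247, and no filter 894 lower. The rescalings divide out a shift near the median factor of 1.36, and the limits change which genes can pass. No paired analysis was possible because there was only 1 sample of either genotype. Leaving out a replicate and count tests were not run for want of replicates and counts.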
